A study of Mus musculus with 29 samples.

Results

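The Toll-like receptors Tlr1, Tlr2, Tlr3, Tlr4, Tlr5, Tlr7, Tlr8, Tlr9 and Tlr13 and their shared adaptor Myd88 were followed in colon RNA of mice across 6 models of colitis. These 10 genes were found by their gene symbols among the 54532 genes of the count table, and all 10 passed the limit on low counts that 18616 genes passed. Gene counts from RNA sequencing of colon segments were available for 29 mice in 9 groups, 1 library per mouse. Total counts per library ran from 10725564 to 14977094, with a median of 12287039.

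Controls for the first 3 models were 3 untreated wild-type mice labelled Balb/C. DSS mice (n = 3, Balb/C by label) drank 3% dextran sulfate sodium, which injures the epithelium, for 5 days and were culled at day 10. DNBS mice (n = 3, Balb/C by label) received 3 mg of the hapten DNBS rectally. Mice of the IL10 blocking group (n = 4, Balb/C by label) received an antibody, called IL10 blocking in the sample labels and anti-IL-10R in the treatment text, at 750 ug and were culled after 4 weeks or at earlier signs of colitis. The study's methods instead describe Il10-/- mice given microbiota by gavage, DSS in C57Bl6 mice culled earlier, and an earlier cull of TCT mice. TRUC mice (n = 4), labelled Balb/C Tbx21-/- and Rag2-/-, develop colitis without treatment and were set against untreated Balb/C Rag2-/- mice (n = 3). TCT mice (n = 3, C57BL/6 Rag1-/- by genotype label, Rag2-/- in the treatment text) received 500000 naive CD4+ T cells and were culled after 6 to 8 weeks. Anti-CD40 mice (n = 3, C57BL/6 Rag1-/- by label) received 50 ug of an agonist antibody and were culled after 7 days. Both were set against untreated mice labelled C57BL/6 Rag1-/- (n = 3). Mice without Rag1 or Rag2 make no B or T cells of their own, and in TCT the T cells come from the donor. The labels state no age and no sequencing date, and nothing says which mice shared a cage or a litter. Count columns of the TRUC mice are named in unlike styles, among them TRUC_8W, which the labels do not explain.

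The libraries did not all match their labels. H2-Ea-ps, an MHC class II gene that C57BL/6 mice do not express and BALB/c mice do, had 784 to 1462 counts in the Rag2-/- controls, 787 to 1011 in the labelled Rag1-/- controls, 2981 to 3956 in TRUC and 2262 to 2512 in anti-CD40, but at most 1 count in the wild-type, DSS, DNBS, IL10 blocking and TCT libraries. This goes against the Balb/C label of the wild-type, DSS, DNBS and IL10 blocking mice and the C57BL/6 label of the Rag1-/- controls and anti-CD40. Rag2 had 6 to 20 counts in the labelled Rag1-/- controls, 15 to 25 in the Rag2-/- controls, 57 to 94 in TRUC and 48 to 99 in anti-CD40, and none in TCT. Rag1 had 20 to 33 counts in TCT and at most 4 in every other library. Tbx21, the other gene disrupted in TRUC by label, had 26 to 52 counts there and 1 to 7 in the Rag2-/- controls. A disrupted gene can still be transcribed, and gene counts do not show the disrupted part. Thus TCT and the labelled Rag1-/- controls differed in both genes, and for that comparison colitis and mouse background cannot be told apart. Anti-CD40 and the labelled Rag1-/- controls both held H2-Ea-ps and Rag2 counts. A second control group was used for each model: wild-type mice for TCT, and Rag2-/- mice for anti-CD40. In H2-Ea-ps the wild-type mice matched TCT, but they have lymphocytes of their own. Colitis and lymphocytes cannot be told apart in that comparison. Colon epithelium markers summed to at least 5644 CPM (counts scaled to a common library size) in every mouse. Genes of the Y chromosome had at most 1 count, which matters for Tlr7, Tlr8 and Tlr13 on the X chromosome. Smooth muscle markers (4 genes) summed to 2532 to 3783 CPM in TRUC against 5324 to 5845 CPM in its controls. In IL10 blocking they summed to 2237 to 4246 CPM, against 5749 to 7054 CPM in the wild-type mice. DSS ran from 4023 CPM in mouse 8 to 10020 CPM in mouse 6, and DNBS, TCT and anti-CD40 overlapped their controls. The part of muscle in the members' values was not tested.

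Toll-like receptors are membrane proteins that bind microbial molecules through leucine-rich repeats and signal through an intracellular TIR domain. Tlr1, Tlr2, Tlr4 and Tlr5 meet lipopeptides, lipopolysaccharide and flagellin at the cell surface, while Tlr3, Tlr7, Tlr8, Tlr9 and Tlr13 meet nucleic acids in endosomes. All of them except Tlr3 signal through Myd88, which gathers kinases of the Irak family and leads to NF-kappaB, and Tlr3 signals through Ticam1. In the colon these genes are used by epithelium, macrophages, dendritic cells, neutrophils and B cells. In bulk tissue, fewer cells of a type and less RNA per cell cannot be told apart.

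Positions are those of GRCm38. Tlr7 (chrX:167304929-167330558) and Tlr8 (chrX:167242696-167264329) are neighbours on the minus strand, and Tlr13 lies apart from them on the plus strand (chrX:106143204-106160493). Tlr9 (chr9:106222598-106226883, plus strand) and Myd88 (chr9:119335934-119341411, minus strand) share chromosome 9. Tlr1 is at chr5:64924679-64933563 (minus), Tlr2 at chr3:83836272-83841767 (minus), Tlr3 at chr8:45395665-45411080 (minus), Tlr4 at chr4:66827584-66930284 (plus) and Tlr5 at chr1:182954788-182976044 (plus). Counts cover whole genes, and 3 members carry a reservation. Tlr1 shared 13.6% of its 50-base windows with Tlr6, Tlr3 overlapped Gm45542 on the opposite strand over 7.32% of its exon bases, and Myd88 overlapped Acaa1a on the opposite strand over 11.3%. Whether the counting used strand is not given in the sources used here, so reads of such partners may be mixed.

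RefSeq (GRCm38.p6) start sites were given for 8 of the 10 members, 9 sites in all, without Tlr4 and Tlr7. The 250 bases before each start were searched on both strands for a kappaB motif (GGANTTTCC, found in 1.07% of 32851 mouse promoters), an interferon response motif (ISRE, GAAANNGAA, 7.13%) and a PU.1 motif (GAGGAAG, 10.6%), with N for any base. At least 1 of the motifs was found in 6 of the 9 windows, against 17.9% of all promoters, and the match is a description of letters, not of binding. Shown are members whose levels were correlated over the mice, as given below (Tlr8, Tlr9 and Tlr13), and the adaptor, 5′ to 3′ on the strand of the gene with the motif in capitals. The first pair gives the last 120 bases before the start and the second pair the 30 bases around the match.
Tlr8 promoter, chrX:167264330-167264449, minus strand, ISRE read on the opposite strand: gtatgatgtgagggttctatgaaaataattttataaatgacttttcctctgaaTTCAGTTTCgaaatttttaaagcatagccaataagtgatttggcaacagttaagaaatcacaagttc
Tlr9 promoter, chr9:106222478-106222597, plus strand, PU.1: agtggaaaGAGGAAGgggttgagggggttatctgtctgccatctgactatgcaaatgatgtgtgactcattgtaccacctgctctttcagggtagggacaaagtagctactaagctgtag
Tlr13 site, chrX:106143181-106143210, plus strand, PU.1: aaaaaagagaaGAGGAAGgaaatgtctcat
Myd88 site, chr9:119340039-119340068, minus strand, ISRE: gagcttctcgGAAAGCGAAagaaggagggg
Tlr3 had a kappaB match 210 to 202 bases before its start and Tlr1 a PU.1 match 23 to 17 bases before a start. None of the 3 motifs was found in the windows of Tlr2 and Tlr5. Some windows lie inside the gene by the GENCODE M21 annotation, which places a start further out. Of the last 120 bases before the start, 120 in Tlr2, 71 in Tlr13, 48 in Tlr3 and 23 in Myd88 lay in exons of the gene. For the Tlr1 starts these were 5 and 81 bases, and none in Tlr5, Tlr8 and Tlr9.

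Per kilobase of exon, Tlr1 was the highest of the 10 genes in the wild-type controls, at 32.01 ± 1.12 CPM per kb (SD, n = 3). Myd88 followed at 11.4 ± 0.263 CPM per kb, and no mouse overlapped between the first and the second. Tlr2, Tlr4 and Tlr3 lay together at 4.85, 4.83 and 4.83 CPM per kb, with mice of neighbours overlapping. Tlr9, Tlr7, Tlr5, Tlr13 and Tlr8, between 0.856 and 0.568 CPM per kb, could not be ordered, since each overlapped the next. In the Rag2-/- controls the order began the same way, and Tlr8 (0.304 CPM per kb) and Tlr9 (0.258 CPM per kb) came last with overlapping mice. In TRUC mice Tlr2, at 30.3 ± 9.64 CPM per kb (SD, n = 4), and Tlr1, at 29.1 ± 1.47, stood side by side at the top, and their mice overlapped.

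**Figure D1:**
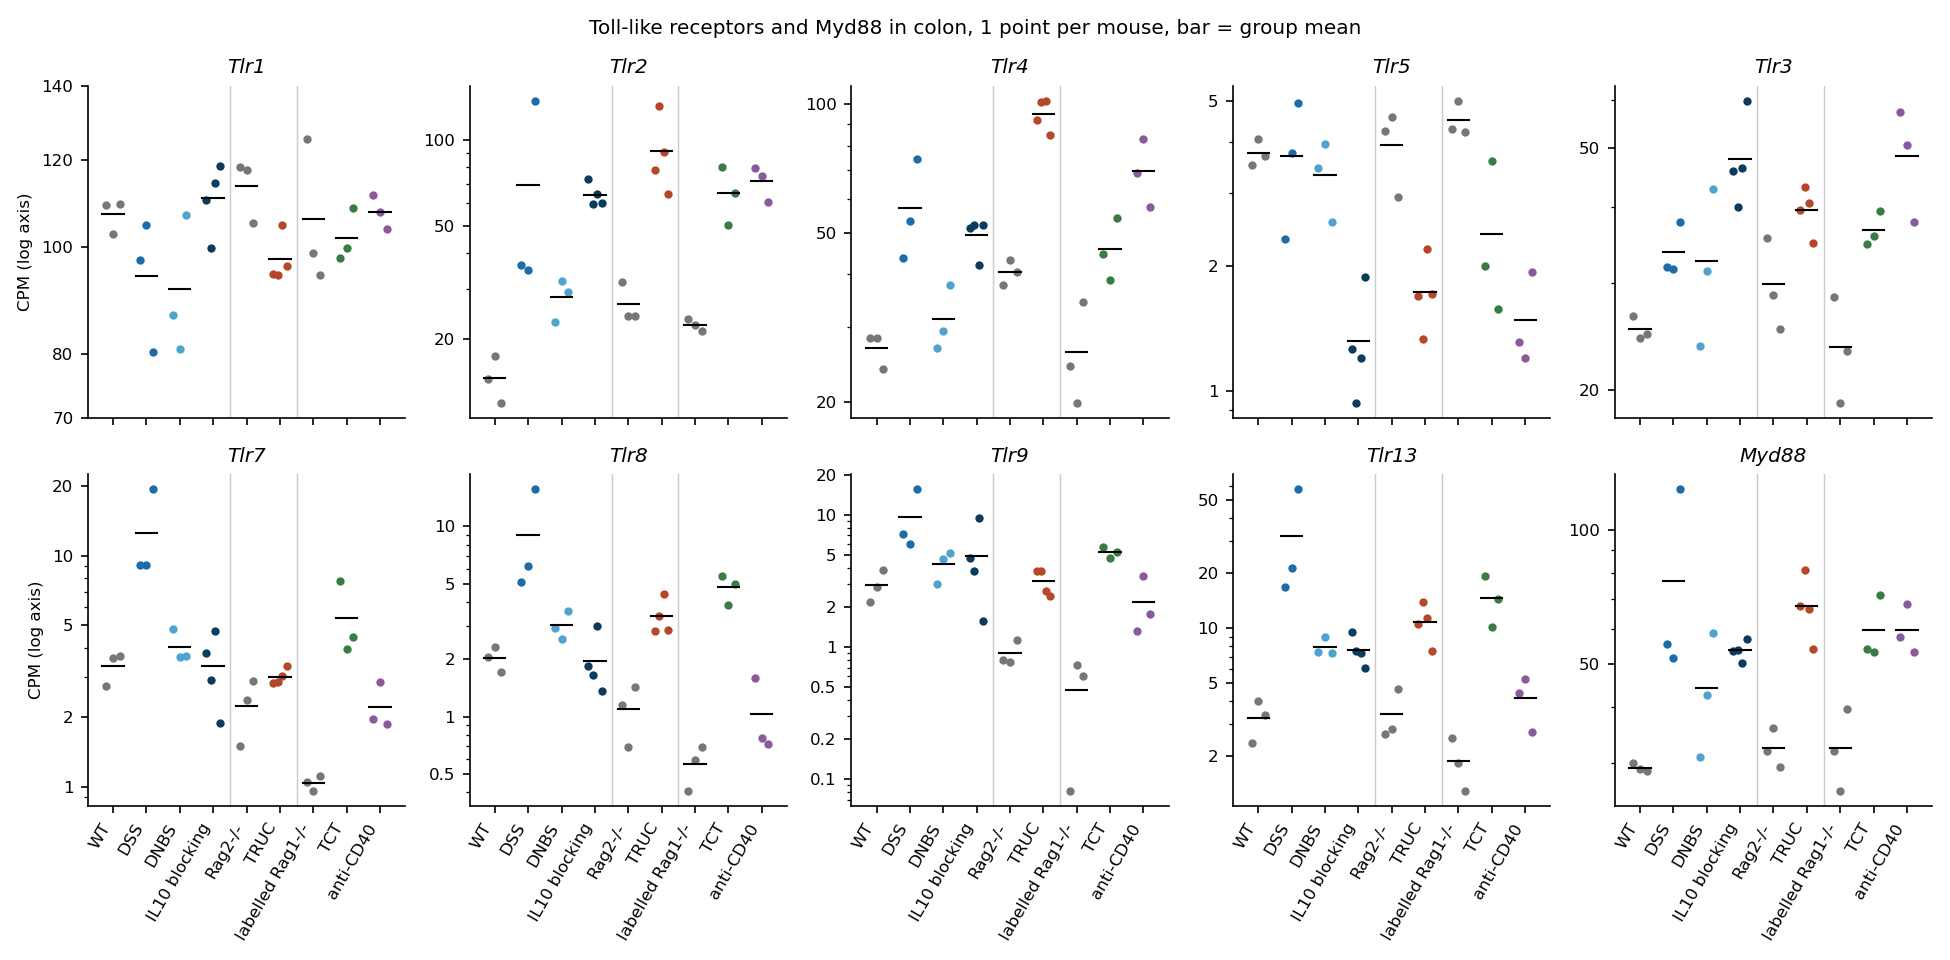
CPM of each gene on log axes, 1 point per mouse and a bar at the group mean, with each control group in grey to the left of its models. Tlr1 stays between 80.3 and 125 CPM throughout, Tlr5 lies lower in 4 models, and DSS mouse 8 stands above the other DSS mice in Tlr2, Tlr7, Tlr8, Tlr9, Tlr13 and Myd88.

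At least 5 of the 10 members were higher in each model except DNBS. By the quasi-likelihood test of edgeR, adjusted by Benjamini-Hochberg for 18616 genes (threshold 0.05), TRUC had 6 members higher and 1 lower, where 22.4% of all genes were higher and 23.4% lower. DSS had 7 higher and 0 lower (all genes 17.7% and 16.3%). IL10 blocking had 5 higher and 1 lower (27.2% and 26.1%). Among the libraries labelled Rag1-/-, TCT had 8 higher and 1 lower (16.1% and 14%) and anti-CD40 6 higher and 1 lower (10.9% and 10.7%). DNBS had 1 higher and 0 lower (3.95% and 2.21%). Set beside these, the members' median log2 fold change ran from 0.44 in DNBS through 0.80 (IL10 blocking), 1.06 (anti-CD40), 1.14 (TRUC) and 1.21 (TCT) to 1.54 in DSS, while that of all genes tested lay between -0.03 and 0.02. The DSS median was 1.01 without DSS mouse 8, and with the second control groups that of TCT was 0.79 and that of anti-CD40 0.49. DSS, DNBS and IL10 blocking share their control mice, as do TCT and anti-CD40. Groups this small often do not overlap. From 15.6% (DNBS) to 28.8% (TRUC) of all genes lay higher in every model mouse than in every control mouse. From 16.9% (DNBS) to 29.2% (TRUC) lay lower in that way.

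**Figure D2:**
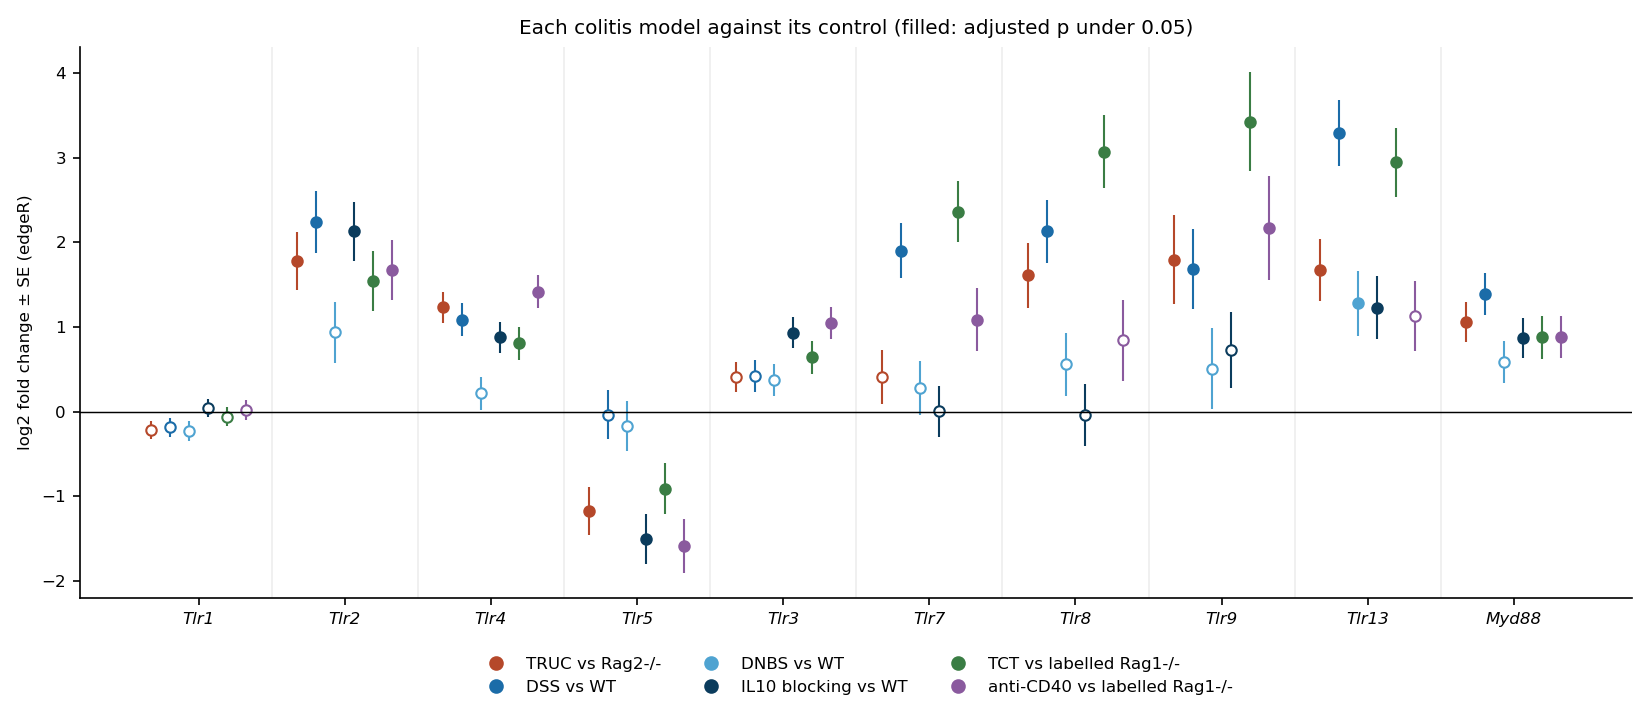
Log2 fold change (points) and standard error (lines) of each gene in the 6 models against their controls, filled where the adjusted p was under 0.05. Tlr1 lies near 0, Tlr5 is lower in 4 models, and Tlr7, Tlr8, Tlr9 and Tlr13 spread most widely between models.

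The surface receptors were led by Tlr2, which binds bacterial lipopeptides together with Tlr1 or Tlr6. Tlr2 was at 14.5, 17.4 and 11.9 CPM in the wild-type controls, 36.2, 34.9 and 137 CPM in DSS, 22.9, 32.03 and 29.2 CPM in DNBS and 73.1, 59.3, 64.3 and 60.02 CPM in IL10 blocking. Every mouse of these 3 models lay above every wild-type mouse, and DSS mouse 8 lay far above the other DSS mice. Tlr2 was higher in DSS (log2 fold change 2.24 ± 0.36, edgeR adjusted p = 7.35e-05) and in IL10 blocking (log2 fold change 2.13 ± 0.35, edgeR adjusted p = 3.19e-05), and the difference in DNBS did not pass (log2 fold change 0.94 ± 0.36, edgeR adjusted p = 0.108). On the groups compared alone, Tlr2 passed in DNBS with edgeR and DESeq2 (adjusted p = 0.0466 and 0.000602). Without DSS mouse 8 the DSS value was 1.28 (edgeR adjusted p = 0.000447). Tlr2 was at 31.7, 24.03 and 24.02 CPM in the Rag2-/- controls and 78.3, 132, 90.4 and 64.5 CPM in TRUC. Tlr2 was at 23.4, 22.3 and 21.3 CPM in the labelled Rag1-/- controls, 80.4, 50.2 and 64.96 CPM in TCT and 79.5, 74.4 and 60.4 CPM in anti-CD40. Again the groups did not overlap, and Tlr2 was higher in TRUC (log2 fold change 1.78 ± 0.34, edgeR adjusted p = 0.000228), TCT (log2 fold change 1.54 ± 0.35, edgeR adjusted p = 0.00176) and anti-CD40 (log2 fold change 1.67 ± 0.35, edgeR adjusted p = 0.00195). Against the second control groups TCT gave 2.15 ± 0.36 and anti-CD40 1.43 ± 0.35, with edgeR adjusted p of 0.000149 and 0.00543.

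Tlr4, the receptor of lipopolysaccharide, had its highest levels in TRUC. Tlr4 was at 37.7, 43.1 and 40.5 CPM in the Rag2-/- controls and 91.95, 101, 102 and 84.8 CPM in TRUC. The lowest TRUC mouse was well above the highest control (log2 fold change 1.23 ± 0.18, edgeR adjusted p = 1.82e-05). Tlr4 was at 28.3, 28.3 and 23.9 CPM in the wild-type controls, 43.5, 53.3 and 74.6 CPM in DSS, 26.8, 29.3 and 37.7 CPM in DNBS and 51.3, 52.2, 42.04 and 52.2 CPM in IL10 blocking. DSS (log2 fold change 1.09 ± 0.19, edgeR adjusted p = 0.000186) and IL10 blocking (log2 fold change 0.88 ± 0.18, edgeR adjusted p = 0.000387) were above the wild-type mice without overlap, whereas DNBS mice overlapped them (log2 fold change 0.22 ± 0.19, edgeR adjusted p = 0.51). Tlr4 was at 24.3, 19.9 and 34.3 CPM in the labelled Rag1-/- controls, 44.6, 38.7 and 54.02 CPM in TCT and 68.95, 83.00 and 57.5 CPM in anti-CD40. Both models were higher without overlap, anti-CD40 (log2 fold change 1.42 ± 0.20, edgeR adjusted p = 4.13e-05) as well as TCT (log2 fold change 0.81 ± 0.19, edgeR adjusted p = 0.00266). With the second control groups the values were 0.77 in TCT and 0.79 in anti-CD40, with edgeR adjusted p of 0.00454 and 0.00502.

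Tlr1, the partner of Tlr2, passed in no model. Group means lay between 91.6 ± 13.7 CPM in DNBS (SD, n = 3) and 114 ± 7.37 CPM in the Rag2-/- controls (SD, n = 3). Its log2 fold change ran from -0.23 ± 0.11 (SE) in DNBS to 0.05 ± 0.11 in IL10 blocking, with edgeR adjusted p from 0.0928 to 0.936. TRUC mice, at 94.3 to 105 CPM, lay below the Rag2-/- controls, at 105 to 118 CPM, and this difference (-0.22) passed the threshold when edgeR or DESeq2 was run on those groups alone (adjusted p = 0.02 and 0.0411). Tlr6, the other partner of Tlr2, was higher in DSS (log2 fold change 1.76 ± 0.32, edgeR adjusted p = 0.000217), where reads shared with Tlr1 leave the split uncertain.

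Tlr5, the receptor of flagellin, went the other way. Tlr5 was at 4.25, 4.59 and 2.95 CPM in the Rag2-/- controls and 1.696, 1.33, 2.199 and 1.71 CPM in TRUC. Tlr5 was at 3.51, 4.06 and 3.69 CPM in the wild-type controls, 2.33, 3.76 and 4.96 CPM in DSS, 3.46, 3.96 and 2.56 CPM in DNBS and 1.26, 0.935, 1.201 and 1.88 CPM in IL10 blocking. Every TRUC and every IL10 blocking mouse lay below every control, and DSS and DNBS mice overlapped the wild-type mice. Accordingly Tlr5 fell in TRUC (log2 fold change -1.17 ± 0.29, edgeR adjusted p = 0.00197) and in IL10 blocking (log2 fold change -1.51 ± 0.30, edgeR adjusted p = 0.000216), to 0.443 and 0.352 of the control level, and not in DSS (log2 fold change -0.04 ± 0.29, edgeR adjusted p = 0.943) or DNBS (log2 fold change -0.17 ± 0.29, edgeR adjusted p = 0.758). Tlr5 was at 4.297, 5.01 and 4.22 CPM in the labelled Rag1-/- controls, 2.01, 3.59 and 1.58 CPM in TCT and 1.32, 1.200 and 1.94 CPM in anti-CD40. Again without overlap, it was lower in anti-CD40 (log2 fold change -1.59 ± 0.31, edgeR adjusted p = 0.00118) and in TCT (log2 fold change -0.91 ± 0.30, edgeR adjusted p = 0.0253). Against the second controls the fall held in anti-CD40 (-1.39, edgeR adjusted p = 0.00324) and not in TCT (-0.64, adjusted p = 0.109). In TCT the call was also lost without labelled Rag1-/- control 3, TCT mouse 1 or TCT mouse 5, with edgeR adjusted p from 0.0823 to 0.144. These are low levels, 9 to 68 counts per mouse. The summed epithelium markers ran from 10498 to 11416 CPM in TRUC and from 9067 to 9770 CPM in its controls, and from 10606 to 19276 CPM in IL10 blocking against 7154 to 8605 CPM in the wild-type controls. In edgeR's test 3 of the 7 were higher and 1, Car1, lower in TRUC (log2 fold change -3.69), 5 were higher and 0 lower in IL10 blocking, 2 were higher and Car1 lower in anti-CD40 (-2.74), and 1 was higher and Cdx2 lower in TCT (-2.56). The part of the epithelium in the Tlr5 differences was not tested.

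Tlr3, the endosomal receptor of viral double-stranded RNA, had log2 fold changes from 0.37 to 1.05. In IL10 blocking it was at 48.0 ± 8.38 CPM (SD, n = 4), and the wild-type mice were at 25.1 ± 1.14 CPM (SD, n = 3), without overlap (log2 fold change 0.93 ± 0.18, edgeR adjusted p = 0.000192). In anti-CD40 it was at 48.6 ± 9.98 CPM, in TCT at 36.7 ± 2.42 CPM and in the labelled Rag1-/- controls at 23.5 ± 4.69 CPM (SD, n = 3 each). Both rises passed (log2 fold change 1.05 ± 0.19, edgeR adjusted p = 0.00058 for anti-CD40 and log2 fold change 0.64 ± 0.19, edgeR adjusted p = 0.0132 for TCT), and both passed with the second control groups. The TCT call was lost without labelled Rag1-/- control 3 or TCT mouse 5 (edgeR adjusted p = 0.0806 and 0.0513). TRUC (log2 fold change 0.41 ± 0.18, edgeR adjusted p = 0.0642), DSS (log2 fold change 0.42 ± 0.19, edgeR adjusted p = 0.0864) and DNBS (log2 fold change 0.37 ± 0.19, edgeR adjusted p = 0.229) did not pass in the fit of all groups. Fitted on the groups compared alone, edgeR gave adjusted p of 0.013 for TRUC and 0.0478 for DSS.

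Tlr7, which senses single-stranded RNA, and its neighbour on the X chromosome, Tlr8, had their largest fold changes in DSS and TCT. Tlr7 was at 2.74, 3.596 and 3.69 CPM in the wild-type controls, 9.13, 9.09 and 19.4 CPM in DSS, 4.84, 3.64 and 3.67 CPM in DNBS and 3.79, 2.91, 4.72 and 1.88 CPM in IL10 blocking. DSS stood clear of the wild-type mice (log2 fold change 1.90 ± 0.32, edgeR adjusted p = 0.00011), and the IL10 blocking mice lay on both sides of them (log2 fold change 0.00 ± 0.31, edgeR adjusted p = 0.996). Tlr8 was at 2.06, 2.33 and 1.72 CPM in the wild-type controls, 5.098, 6.22 and 15.7 CPM in DSS, 2.93, 2.56 and 3.58 CPM in DNBS and 1.85, 1.66, 3.003 and 1.36 CPM in IL10 blocking. Tlr8 was higher in DSS (log2 fold change 2.13 ± 0.37, edgeR adjusted p = 0.000145) and not in DNBS (log2 fold change 0.56 ± 0.37, edgeR adjusted p = 0.365) or IL10 blocking (log2 fold change -0.04 ± 0.36, edgeR adjusted p = 0.933). Without DSS mouse 8 the DSS values were 1.44 for Tlr7 and 1.47 for Tlr8, with edgeR adjusted p of 0.00161 and 0.00237.

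In TRUC the neighbours differed in their calls. Tlr7 was at 1.51, 2.37 and 2.87 CPM in the Rag2-/- controls and 2.802, 2.85, 3.02 and 3.34 CPM in TRUC, which overlapped (log2 fold change 0.41 ± 0.32, edgeR adjusted p = 0.308). Tlr8 was at 1.15, 0.689 and 1.43 CPM in the Rag2-/- controls and 2.802, 3.38, 4.398 and 2.85 CPM in TRUC, which did not (log2 fold change 1.61 ± 0.38, edgeR adjusted p = 0.00161). Whether the effects on Tlr7 and Tlr8 differ from each other was not tested.

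The labelled Rag1-/- controls had the lowest levels of both. Tlr7 was at 1.05, 0.958 and 1.12 CPM in the labelled Rag1-/- controls, 7.77, 3.93 and 4.45 CPM in TCT and 1.97, 2.83 and 1.87 CPM in anti-CD40. Tlr8 was at 0.405, 0.589 and 0.688 CPM in the labelled Rag1-/- controls, 5.502, 3.85 and 5.004 CPM in TCT and 1.597, 0.772 and 0.718 CPM in anti-CD40. Against these controls TCT was 5.13-fold higher for Tlr7 (log2 fold change 2.36 ± 0.36, edgeR adjusted p = 2.33e-05) and 8.41-fold for Tlr8 (log2 fold change 3.07 ± 0.43, edgeR adjusted p = 8.19e-06). Against the wild-type controls the TCT values were 0.69 ± 0.32 for Tlr7, which did not pass (edgeR adjusted p = 0.109), and 1.22 ± 0.37 for Tlr8, which did (edgeR adjusted p = 0.0154). In anti-CD40 Tlr7 was higher than the labelled Rag1-/- controls (log2 fold change 1.08 ± 0.37, edgeR adjusted p = 0.0399), but -0.027 ± 0.35 from the Rag2-/- controls (edgeR adjusted p = 0.977). The call for Tlr7 in anti-CD40 was lost without any 1 of the 3 labelled Rag1-/- controls, or without anti-CD40 mouse 6 or 7, with edgeR adjusted p from 0.0589 to 0.188. Tlr8 did not pass in anti-CD40 (log2 fold change 0.84 ± 0.48, edgeR adjusted p = 0.215).

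Tlr9, the receptor of unmethylated CpG DNA, is known from B cells and plasmacytoid dendritic cells, and its level was set beside the B cells of each group. Tlr9 was at 2.21, 2.86 and 3.85 CPM in the wild-type controls, 7.17, 6.02 and 15.7 CPM in DSS, 2.99, 4.65 and 5.12 CPM in DNBS and 4.72, 3.74, 9.52 and 1.57 CPM in IL10 blocking. DSS lay above the wild-type mice (log2 fold change 1.69 ± 0.47, edgeR adjusted p = 0.00815), and the DNBS (log2 fold change 0.51 ± 0.48, edgeR adjusted p = 0.537) and IL10 blocking mice (log2 fold change 0.73 ± 0.45, edgeR adjusted p = 0.18) overlapped them. The DSS call rested on mouse 8, without which the value was 1.15 (edgeR adjusted p = 0.0883). Tlr9 was at 0.797, 0.765 and 1.13 CPM in the Rag2-/- controls and 3.76, 3.74, 2.66 and 2.44 CPM in TRUC, without overlap (log2 fold change 1.80 ± 0.52, edgeR adjusted p = 0.00737). Tlr9 was at 0.0811, 0.737 and 0.602 CPM in the labelled Rag1-/- controls, 5.68, 4.701 and 5.28 CPM in TCT and 1.32, 3.43 and 1.79 CPM in anti-CD40. TCT (log2 fold change 3.42 ± 0.59, edgeR adjusted p = 9.22e-05) and anti-CD40 (log2 fold change 2.17 ± 0.61, edgeR adjusted p = 0.0135) were both higher than these controls, in which Tlr9 had 1 to 10 counts. Neither passed against the second control groups, with values of 0.81 ± 0.48 in TCT and 1.27 ± 0.56 in anti-CD40 (edgeR adjusted p = 0.203 and 0.0993). In anti-CD40 the call was also lost without labelled Rag1-/- control 2 or anti-CD40 mouse 7 (edgeR adjusted p = 0.0623 and 0.105).

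The 5 B cell markers (Ms4a1, Cd79a, Cd79b, Pax5 and Cd22) summed to 63.2 to 106 CPM in the wild-type controls and 98.9 to 311 CPM in DSS. In TRUC they summed to 2.95 to 4.09 CPM, with 1 or 2 of the 5 at 0 in each mouse, and in TCT to 5.47 to 10.9 CPM, with 0 to 2 at 0. The Rag2-/- controls had 1.38 to 1.96 CPM, the labelled Rag1-/- controls 1.03 to 1.46 CPM and anti-CD40 2.22 to 2.82 CPM. Mean Tlr9 was 3.15 CPM in TRUC, 5.22 CPM in TCT and 2.98 CPM in the wild-type controls, groups that also differ in background or genotype. Within the IL10 blocking group, mouse 3 had both the most B cell marker RNA (263 CPM) and the most Tlr9, and mouse 4 the least of both (31.99 CPM of markers). This was not particular to B cells. Mouse 3 also had the most macrophage and monocyte (1860 CPM), T cell (147 CPM) and dendritic cell marker RNA (28.1 CPM). Mouse 4 had the least macrophage and monocyte (1261 CPM) and dendritic cell marker RNA (13.7 CPM), and mouse 1 the least T cell marker RNA (87.5 CPM). Without mouse 4 the IL10 blocking value of Tlr9 passed (1.01, edgeR adjusted p = 0.0488). Dendritic cell markers (5 genes) summed to 14.4 to 18.4 CPM in TRUC and 7.44 to 15.8 CPM in its controls. TCT had 12.2 to 19.5 CPM and anti-CD40 4.81 to 6.26 CPM, against 9.16 to 11.3 CPM in the labelled Rag1-/- controls. DSS had 14.4 to 23.3 CPM, IL10 blocking 13.7 to 28.1 CPM and DNBS 7.91 to 11.6 CPM, against 10.4 to 11.4 CPM in the wild-type controls. The part of B cells, dendritic cells, macrophages or T cells in the Tlr9 differences was not tested in any model.

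**Figure D3:**
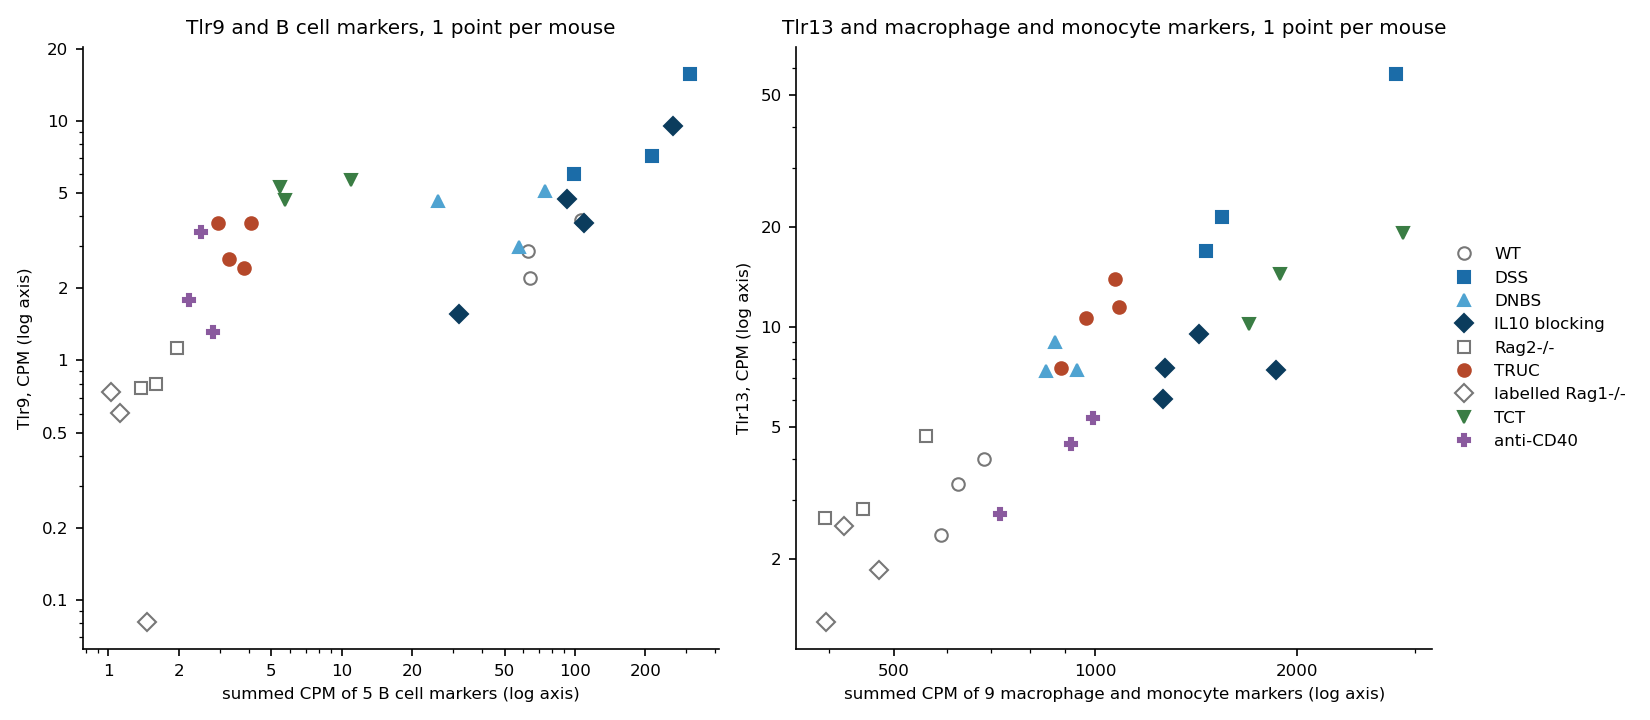
Left, Tlr9 against the summed B cell markers, and right, Tlr13 against the summed macrophage and monocyte markers, in CPM on log axes with 1 point per mouse and open symbols for controls. TRUC and TCT mice have Tlr9 between 2.44 and 5.68 CPM with B cell markers of at most 10.9 CPM, and Tlr13 is at most 5.32 CPM in the controls and anti-CD40.

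Tlr13, a mouse receptor of bacterial ribosomal RNA, was the member with the largest rise in DSS. Tlr13 was at 2.36, 3.996 and 3.36 CPM in the wild-type controls, 16.9, 21.3 and 57.6 CPM in DSS, 7.405, 8.996 and 7.34 CPM in DNBS and 9.53, 7.48, 7.38 and 6.06 CPM in IL10 blocking. All 10 of these colitis mice lay above all 3 wild-type mice, and DSS mouse 8 was again far above the others. Tlr13 was 9.79-fold higher in DSS (log2 fold change 3.29 ± 0.39, edgeR adjusted p = 3.53e-06), 2.43-fold in DNBS (log2 fold change 1.28 ± 0.38, edgeR adjusted p = 0.0465) and 2.34-fold in IL10 blocking (log2 fold change 1.23 ± 0.37, edgeR adjusted p = 0.00733). It was the only member that passed in DNBS, and that call was lost when DNBS mouse 14 or 16 or any 1 of the wild-type mice was left out (edgeR adjusted p from 0.0914 to 0.188). Without DSS mouse 8 the DSS value was 2.55 (edgeR adjusted p = 7.16e-06). Tlr13 was at 2.66, 2.83 and 4.68 CPM in the Rag2-/- controls and 10.6, 13.9, 11.5 and 7.49 CPM in TRUC, without overlap (log2 fold change 1.67 ± 0.37, edgeR adjusted p = 0.000835). Tlr13 was at 2.51, 1.84 and 1.29 CPM in the labelled Rag1-/- controls, 19.2, 10.2 and 14.5 CPM in TCT and 4.42, 5.32 and 2.73 CPM in anti-CD40. TCT passed (log2 fold change 2.95 ± 0.41, edgeR adjusted p = 6.64e-06), also against the wild-type controls (2.17 ± 0.39, edgeR adjusted p = 0.00026). Anti-CD40 did not pass (log2 fold change 1.13 ± 0.42, edgeR adjusted p = 0.0544), and against the Rag2-/- controls its value was 0.28 ± 0.39. It passed with other filters on low counts (edgeR adjusted p = 0.0451 and 0.0496), and on the groups compared alone with edgeR and DESeq2 (adjusted p = 0.0388 and 0.0227).

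None of the 9 macrophage and monocyte markers (Csf1r, Adgre1, Cd68, Lyz2, Mertk, Fcgr1, C1qa, C1qb and C1qc) was at 0 in any mouse. In edgeR's test 8 of them were higher in TRUC, DSS and TCT, 5 in IL10 blocking and anti-CD40, and 2 in DNBS. Mertk, an engulfment receptor, was lower in TRUC (log2 fold change -1.38), DSS (-1.39), DNBS (-0.84), IL10 blocking (-0.87) and TCT (-0.68). As a sum the markers came to 588 to 682 CPM in the wild-type controls, 1464 to 2816 CPM in DSS with mouse 8 the highest, 843 to 941 CPM in DNBS and 1261 to 1860 CPM in IL10 blocking. The Rag2-/- controls had 395 to 559 CPM and TRUC 890 to 1085 CPM. The labelled Rag1-/- controls had 396 to 475 CPM, anti-CD40 721 to 994 CPM and TCT 1697 to 2885 CPM. Neutrophil markers (6 genes) summed to 131 to 145 CPM in the wild-type controls and 501 to 2446 CPM in DSS, with mouse 8 again the highest. DNBS had 173 to 296 CPM and IL10 blocking 240 to 926 CPM. TRUC had 1536 to 2099 CPM against 211 to 338 CPM in its controls. TCT had 332 to 588 CPM and anti-CD40 557 to 886 CPM, against 152 to 293 CPM in the labelled Rag1-/- controls. IL10 blocking mice had more macrophage marker RNA than any wild-type mouse, and their Tlr7 and Tlr8 overlapped the wild-type levels. The part of macrophages, monocytes and neutrophils in the members' levels was not tested.

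Myd88, the adaptor, was higher in every model except DNBS. Myd88 was at 30.03, 29.1 and 28.7 CPM in the wild-type controls, 55.5, 51.6 and 123 CPM in DSS, 30.99, 42.7 and 58.6 CPM in DNBS and 53.6, 53.7, 50.3 and 56.98 CPM in IL10 blocking. No mouse of these models overlapped the wild-type mice, whose values lay close together. Myd88 was 2.62-fold higher in DSS (log2 fold change 1.39 ± 0.25, edgeR adjusted p = 0.000223) and 1.83-fold in IL10 blocking (log2 fold change 0.87 ± 0.24, edgeR adjusted p = 0.00372), and the 1.503-fold difference in DNBS did not pass (log2 fold change 0.59 ± 0.25, edgeR adjusted p = 0.148). Without DSS mouse 8 the DSS value was 0.87 (edgeR adjusted p = 0.00357). Myd88 was at 31.9, 35.97 and 29.4 CPM in the Rag2-/- controls and 67.6, 81.3, 66.5 and 54.1 CPM in TRUC, without overlap (log2 fold change 1.06 ± 0.24, edgeR adjusted p = 0.00103). Myd88 was at 31.9, 25.9 and 39.6 CPM in the labelled Rag1-/- controls, 53.97, 53.3 and 71.4 CPM in TCT and 57.6, 68.3 and 53.2 CPM in anti-CD40. Both models were higher, TCT (log2 fold change 0.88 ± 0.25, edgeR adjusted p = 0.00975) and anti-CD40 (log2 fold change 0.88 ± 0.25, edgeR adjusted p = 0.0146), and both also against the second control groups (1.02 and 0.88, edgeR adjusted p = 0.0038 and 0.013). These calls were lost without labelled Rag1-/- control 3, without TCT mouse 5 in TCT, and without mouse 7 in anti-CD40, with edgeR adjusted p from 0.0589 to 0.0852.

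**Figure D4:**
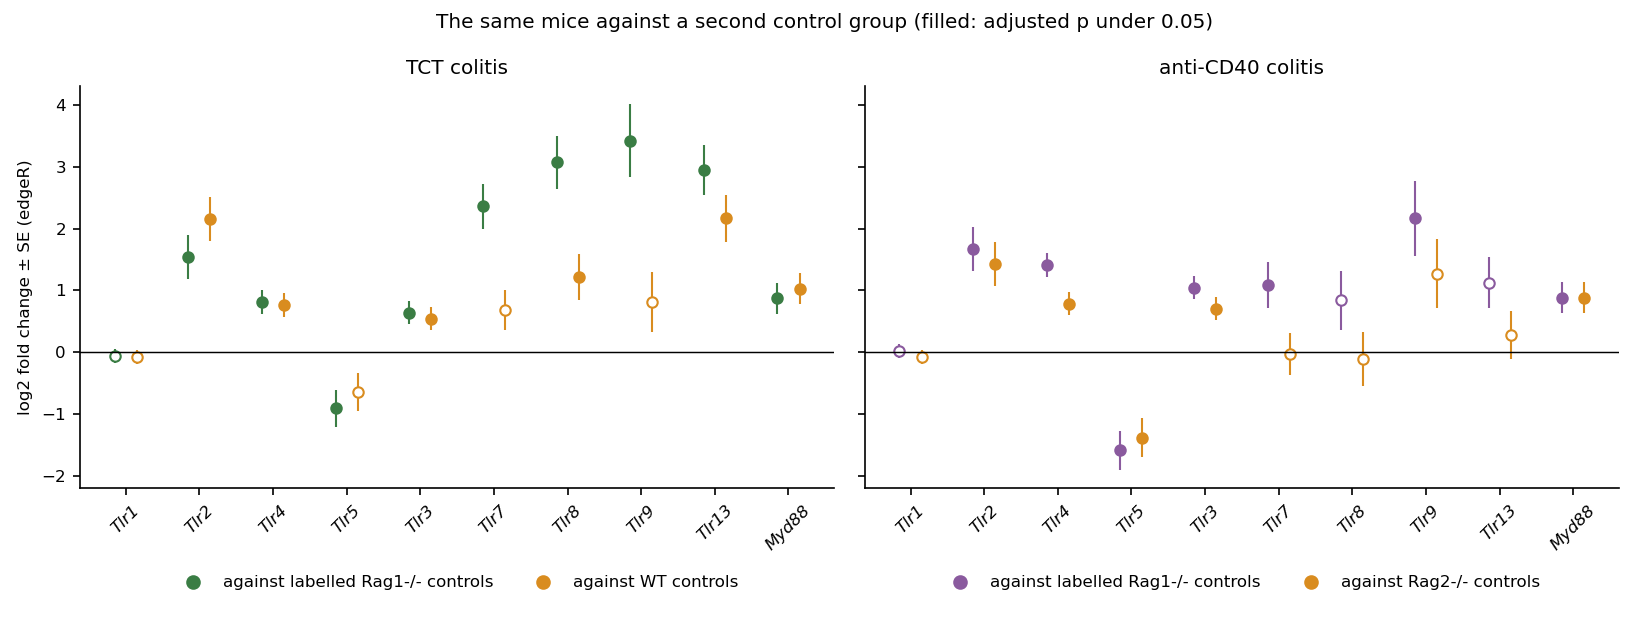
Log2 fold change and standard error in TCT (left) and anti-CD40 (right) against the labelled Rag1-/- controls and, in orange, against a second control group, filled where the adjusted p was under 0.05. The choice of controls moves Tlr7, Tlr8, Tlr9 and Tlr13 most, and Tlr7 in anti-CD40 goes from 1.08 to -0.027.

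With the second control groups, TCT had 6 members higher and 0 lower against the wild-type mice, where 16.9% of all genes were higher and 13.8% lower. Anti-CD40 had 4 members higher and 1 lower against the Rag2-/- controls (12.4% and 11.8%). Tlr2, Tlr3, Tlr4 and Myd88 were higher in both models with either control group. Calls for Tlr7 and Tlr9 were lost in both models. The wild-type and TCT mice also differ in their lymphocytes, and the part of these in the lost calls was not tested.

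The control groups themselves were compared next, Rag2-/- against wild-type mice, which differ in lymphocytes and, by H2-Ea-ps, in mouse background. No member passed in edgeR's fit of all groups (3.25% of all genes were higher and 4.86% lower), 4 had an unadjusted p under 0.05, and DESeq2 on those groups alone called 3. The share of all genes under those last 2 rules was not counted, so neither count can be set beside it. Tlr9 was at 2.21 to 3.85 CPM in the wild-type and at 0.765 to 1.13 CPM in the Rag2-/- mice (log2 fold change -1.71 ± 0.55, edgeR adjusted p = 0.0536). Tlr4 (log2 fold change 0.59 ± 0.19, edgeR adjusted p = 0.0615) and Tlr2 (log2 fold change 0.86 ± 0.36, edgeR adjusted p = 0.162) lay higher in the Rag2-/- mice without overlap. Of all genes, 18.9% lay higher and 18.9% lower without overlap. Lymphocytes and background cannot be told apart here.

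The size of the effects differed between models for most members, as it did for most of all genes tested. edgeR's F test of equal effects over the 6 models passed for 8 of the 10 members, where it passed for 60.5% of all genes. This edgeR test passed for Tlr8 (adjusted p = 9.16e-06), Tlr13 (1.47e-05), Tlr7 (1.52e-05), Tlr5 (0.000867), Tlr4 (0.00115), Tlr9 (0.0107), Tlr3 (0.0144) and Tlr2 (0.0341). For Myd88 (0.107) and Tlr1 (0.136) no difference between models was detectable. For Tlr8 the log2 fold change ran from -0.04 in IL10 blocking to 3.07 in TCT, and for Myd88 from 0.59 in DNBS to 1.39 in DSS. The test includes the TCT comparison, whose control libraries did not match their label.

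Across the 29 mice, levels (log2 CPM) of the members fell into groups that share the mice and their conditions, so the correlations are given without a test. Tlr7, Tlr8, Tlr9 and Tlr13 had Pearson correlations of 0.80 to 0.90 with each other, and 0.35 to 0.66 after group means were removed. Myd88 had 0.89 with Tlr2 and 0.82 with Tlr4, and 0.74 and 0.83 within groups. Tlr5 had negative values with Tlr3 (-0.74), Tlr2 (-0.65) and Tlr4 (-0.62), which within groups were -0.02, 0.13 and -0.12. The sets were not separate, since Tlr13 had 0.65 with Tlr2 and 0.75 with Myd88, and within groups Tlr2 had 0.77 with Tlr13 and 0.66 with Tlr8.

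For each member the 3 most similar genes by Pearson correlation over the 29 mice were sought among 15416 genes with a mean of at least 1 CPM, and the value after removal of group means is given second. Tlr13 was followed most closely, by Clec4a3 (0.97 and 0.81), Mpeg1 (0.96 and 0.85) and Lilr4b (0.96 and 0.80). For Tlr7 they were Cd68 (0.93 and 0.72), Lsp1 (0.92 and 0.70) and Tmem123 (0.92 and 0.86), and for Tlr8 Tm6sf1 (0.94 and 0.67), Adgre1 (0.93 and 0.56) and Clec4a1 (0.92 and 0.73). Cd68 and Adgre1 are macrophage markers. Tlr9 was followed by Cd180 (0.94 and 0.82), Arhgdib (0.93 and 0.68) and Inpp5d (0.92 and 0.89). Cd180 is itself a Toll-like receptor relative of B cells and myeloid cells. Tlr2 was followed by Fes (0.96 and 0.82), Nod2 (0.95 and 0.82) and Prdm1 (0.94 and 0.79). Nod2 is an intracellular sensor of bacterial cell wall fragments. Myd88 was followed by Gbp5 (0.94 and 0.84) and Osmr (0.94 and 0.77), Tlr4 by Met (0.95 and 0.81), Eps8 (0.93 and 0.75) and Gm11545 (0.92 and 0.64), and Tlr3 by Psmb10 (0.93 and 0.81), Bak1 (0.90 and 0.78) and AW112010 (0.90 and 0.77). Psmb10 is a subunit of the immunoproteasome. Tlr5 was followed by Akap11 (0.90 and 0.48), Dnajb4 (0.89 and 0.25) and Ttc3 (0.88 and 0.51), with lower values within groups. Tlr1 had the loosest, Frg1 (0.72 and 0.73), Hint1 (0.71 and 0.61) and Tbrg4 (0.70 and 0.77).

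Other genes of the pathway were followed in lists of 44 genes in all. In edgeR's test 23 were higher and 2 lower in TRUC (all genes 22.4% and 23.4%). DSS had 21 and 5 (17.7% and 16.3%), DNBS 4 and 0 (3.95% and 2.21%) and IL10 blocking 23 and 2 (27.2% and 26.1%). TCT had 18 and 1 (16.1% and 14%) and anti-CD40 14 and 1 (10.9% and 10.7%). Of all genes tested, 44.2% were higher in at least 1 of the 6 models and 43.6% lower in at least 1. The median log2 fold change over the lists was between 0.14 in DNBS and 0.59 in IL10 blocking.

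Among 11 partners and chaperones, 9 were higher in at least 1 model and 1 was lower. Lbp, which hands lipopolysaccharide to Cd14, rose in 4 models, from 2.82 ± 0.54 in IL10 blocking to 4.38 ± 0.59 in anti-CD40 (log2 fold change, edgeR adjusted p of at most 0.000173), and Cd14 in the same 4, from 2.21 ± 0.45 to 2.90 ± 0.46. Neither passed in DNBS or TCT. Ly86, a partner of Cd180, rose in all 6 models, from 1.22 in DNBS to 2.67 in TCT. So did Lgmn, a protease that cuts endosomal receptors, from 0.67 in anti-CD40 to 1.91 in DSS. Unc93b1, which carries the endosomal receptors to their compartment, rose in 5 models, from 0.76 in anti-CD40 to 1.32 in IL10 blocking, with 0.39 in DNBS. Ly96, which completes the Tlr4 complex, rose in 3 models by at most 1.22. Cd36, a fatty acid carrier that can aid Tlr2, was lower in TRUC, IL10 blocking and anti-CD40, by 1.17 to 1.63.

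Of the other receptors, Tlr12 rose in TRUC, DSS, IL10 blocking and TCT, from 1.37 in DSS to 2.94 in TCT, and Tlr11 in TRUC (1.45), with its lowest value, -0.43, in DNBS. The adaptor Tirap, which links Tlr2 and Tlr4 to Myd88, rose in 4 models by 0.50 to 0.93. Ticam1, the adaptor of Tlr3, was higher in TRUC, IL10 blocking and anti-CD40, by 0.38 to 0.64, and lower in DSS by 0.75. Of the 4 adaptors, Ticam2 had the highest value, 1.91 in TCT (edgeR adjusted p = 0.00162), and Sarm1 the lowest, -0.81 in TRUC, which did not pass (edgeR adjusted p = 0.28). Among 19 signal carriers the highest value was that of Irf5, higher in 4 models (2.45 in TCT), a transcription factor behind the endosomal receptors. Irf7, its relative, was higher in DSS (1.93) and IL10 blocking (2.42). Tab1, a partner of the kinase Map3k7, was lower in 4 models, by 0.35 to 0.69, and Irf3 passed in none (-0.13 to 0.19).

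Of 7 brakes on the pathway, 6 were higher in at least 1 model and 2 lower in at least 1. Socs1, an inhibitor of cytokine and Toll-like receptor signalling, rose in all 6 models, from 3.44 ± 0.91 in DNBS to 5.00 ± 0.91 in TRUC. Il1rl1, the IL-33 receptor, rose in 5 models, from 3.81 in IL10 blocking to 5.20 in DSS, with 1.33 in anti-CD40 (edgeR adjusted p = 0.23). Tnfaip3, a ubiquitin-editing inhibitor of NF-kappaB, rose in 5 models by 0.91 to 1.65 and was at 0.03 in DNBS. Sigirr, an inhibitory receptor, was higher in anti-CD40 (0.53) and lower in DSS (-0.44), as was Peli1 (-0.45), which had the lowest value of this list.

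**Figure D5:**
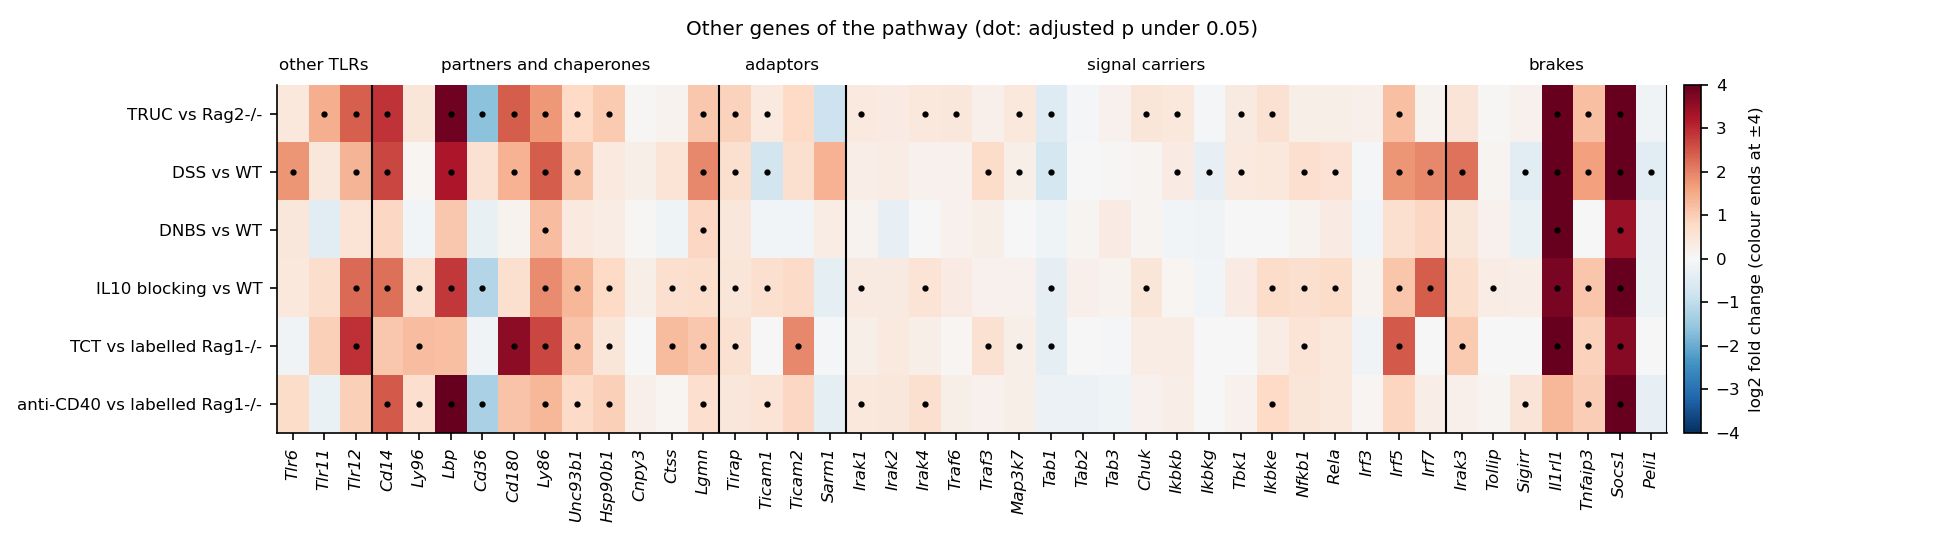
Log2 fold change of the 44 other genes of the pathway (columns, by list) in the 6 models (rows), red for higher and blue for lower, with a dot where the adjusted p was under 0.05. Lbp, Cd14, Il1rl1 and Socs1 stand out as higher, and the DNBS row holds 4 dots.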

How the data were processed

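Colon RNA was sequenced from 29 mice as paired reads of poly-A selected mRNA. The deposited values are raw read counts per gene, which the authors made per the labels with Trimmomatic, HISAT2 and HTSeq on GRCm38. Their versions, the gene annotation and the strand setting of the counting are not given in the sources used here. Of the 54532 genes, 54409 were paired with a symbol, and 92 spike-in rows, with a total of 0, were left out.

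The 18616 genes whose mean count reached 3 were fitted with edgeR 4.0.16 (R 4.3.3, limma 3.58.1), TMM scaling and all 9 groups in 1 quasi-likelihood fit without covariates. Each model was tested against its control group, and p-values were adjusted by Benjamini-Hochberg over all genes tested, with a threshold of 0.05. Standard errors were taken from the F statistic and the fold change. CPM use TMM library sizes, and levels per kilobase use exon lengths of GENCODE M21. On simulated counts with 200 genes changed 4-fold, 81.5% were recovered in the TRUC comparison (18477 genes) and 77.5% in the DSS comparison (18495 genes). These genes were drawn at random, and far more genes were called in the data. The recovery can therefore not be read as that of the members. Totals of 10725564 to 14977094 counts limit the low members, where a count of 0 would allow up to 3 counts.

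Groups follow the labels. The members and the gene lists were chosen with earlier results of these data known. Named are all members, list genes called 1 way in all 6 models, each list's highest and lowest fold change, and the 3 genes most like each member. A B cell marker and 1 gene most like Myd88 are not reported here, and the marker was left out of its sum. Other pathway genes were named after their values were seen. Alternatives were RLE and upper quartile scaling, other filters, fits of the compared groups alone, DESeq2 1.42.0, a stricter threshold of 0.01, a replicate block, second control groups and leaving out each mouse. Nothing says that mice of a group were housed or processed apart, so p-values measure the spread between these mice.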

Additional observations from a re-analysis of the deposited data

Results flagged for a closer look

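The effect of colitis on 8 members differed between the 6 models by edgeR's F test of equal effects, with adjusted p over all genes of 0.0341 for Tlr2, 0.0144 for Tlr3, 0.00115 for Tlr4, 0.000867 for Tlr5, 1.52e-05 for Tlr7, 9.16e-06 for Tlr8, 0.0107 for Tlr9 and 1.47e-05 for Tlr13. The same test passed for 60.5% of all genes.

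Tlr4 in the IL10 blocking group had 1 mouse apart from the rest, the lowest at 42.0 CPM beside 51.3, 52.2 and 52.2 CPM. Each of the 10 members was examined in the 4 TRUC and the 4 IL10 blocking mice, 20 sets of values in all, of which this was the only one with a mouse apart, and chance sets about 1 in 20 apart.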

How the results depend on the processing

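Of the single values of members, 497 of those under other settings and 413 of those with 1 mouse left out kept their side of the threshold, 16 and 22 lost the call, and 26 and 5 gained one. Of the called values 1 turned direction, the log2 fold change of Tlr7, antiCD40 with Rag2-/- mice as controls (value -0.027). Of values that were not called, 10 of 252 under other settings and 15 of 205 with 1 mouse left out changed sign, among them Tlr8 in anti-CD40 with those controls (0.84 to -0.11). Members called in DNBS went from 1 to 0 at a threshold of 0.01 and with upper quartile scaling, to 2 with edgeR on the compared groups alone and with DESeq2, and ran from 0 to 2 with 1 mouse left out. In anti-CD40 they went from 7 to 4 at a threshold of 0.01 and ran from 4 to 8 with 1 mouse left out, and the test of equal effects went from 8 to 5 at that threshold. Between Rag2-/- and wild-type controls 1 member was called with upper quartile scaling or with no filter on low counts, and 3 with edgeR alone on those groups, with DESeq2 and with the replicate block, against 0. With upper quartile scaling, 542 of all genes were higher and 520 lower in DNBS, against 736 and 412 in the main fit. Between those control groups 498 were higher and 1022 lower, against 605 and 905. Except for the scalings, the share of all genes called under these settings was not counted, so the other counts have no background beside them. The cause was not tested.

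Replicate numbers shared between groups did not pair the mice (correlation of deviations from -0.08 to 0.07). With the replicate as a block, 7 members were called in TRUC and 6 in IL10 blocking, as without it, with Tlr5 lost in TRUC (-0.95, edgeR adjusted p = 0.0722) and Tlr3 gained (0.57, adjusted p = 0.0095). The share of all genes called with the block was not counted. Upper quartile scaling moved the median of all genes by -0.11 in TRUC and -0.17 in IL10 blocking, and the share of calls that were higher from 64.1% to 51.0% in DNBS and from 51.0% to 38.4% in IL10 blocking. Low counts limit Tlr5, Tlr7, Tlr8 and Tlr9.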
